A study of Mus musculus with 12 samples.

Results

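Expression of Rgs9bp and of 9 other genes of G-protein shut-off was followed in mouse dorsal root ganglia, which hold the cell bodies of somatic sensory neurons, after deletion of the transcription factor gene Prdm12 in the adult. The 10 genes were 7 RGS genes (Rgs9, Rgs7, Rgs2, Rgs3, Rgs4, Rgs10 and Rgs17), the membrane anchors Rgs9bp and Rgs7bp, and Gnb5. All 10 were matched by symbol to 1 identifier each among the 55416 genes of the count tables, and all 10 passed the filter on low counts. The set was chosen by gene name around Rgs9bp, with the fold changes of iKO over control in these same libraries known. Values of the 10 genes between iKO and control libraries are therefore given as a description, without p-values. Where one of the 10 is said to be called in such a comparison, the word only places it past the threshold and supports nothing.

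Regulators of G-protein signalling (RGS proteins) bind the active, GTP-loaded Gα subunit of a heterotrimeric G protein and speed up the hydrolysis of its GTP, which shortens the signal of a G-protein-coupled receptor. The R7 subfamily (RGS6, RGS7, RGS9 and RGS11) is stable only in complex with Gβ5, the product of Gnb5. Its complexes are held at the membrane by anchors, among them R9AP (Rgs9bp) and R7BP (Rgs7bp), and not every R7 protein uses each anchor. In photoreceptors the complex of RGS9, Gβ5 and R9AP switches off transducin. RGS2, RGS3, RGS4, RGS10 and RGS17 act without such an anchor complex.

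The 6 iKO libraries came from mice labelled Rosa26Cre ERT2; Fl/Fl, in which Cre-ERT2, a recombinase switched on by tamoxifen, is expressed from Rosa26 and both Prdm12 alleles are floxed, injected with tamoxifen. The 6 controls were mixed. Controls 1 to 4 received tamoxifen and were Rosa26Cre ERT2; Fl/+ (control 1), +/+; Fl/+ (controls 2 and 3) and Rosa26Cre ERT2; +/+ (control 4). Controls 5 and 6 had the iKO genotype and received corn oil. All mice were adult, of the C57Bl6 strain, and studied 1 month after injection. The Cre is not restricted to neurons, and no label states if ganglia of 1 animal or of several went into a library, so the spread between libraries may be partly technical. Libraries iKO 1 to 3 and controls 1 and 2 were female and the other 7 male.

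Library totals ran from 13943784 to 20377766 counts. Prdm12 was at 18.6 to 25.4 CPM (counts scaled to a library size of 1000000) in iKO libraries, against 64.6 to 147.1 CPM in controls, with control 6 the lowest control. Of 16384 genes tested, 88 were higher (0.537%) and 67 lower (0.409%) in iKO, 0.946% called in all, by edgeR's quasi-likelihood test at an adjusted p under 0.05. The 155 calls became 364 without iKO 1, the most on leaving out 1 library, and 92 without control 1, the fewest. The tissue markers were those of a ganglion: 12 sensory neuron markers summed to 11693.7 to 17556.2 CPM in iKO and 12759.6 to 18438.3 CPM in control libraries, and no marker on this list was at 0 in all libraries. Library iKO 1 stood apart before any comparison. It had the lowest neuron sum, and its sums of 8 macrophage (314.7 CPM), 6 endothelial (190.0 CPM), 8 mural (228.2 CPM) and 6 fibroblast markers (3874.7 CPM) were above every other library. The summed level of 8 myelinating Schwann cell markers was 4263.5 to 6145.1 CPM in iKO and 3675.0 to 4701.3 CPM in control libraries. Here too iKO 1 was the highest library. The fold changes of all 8 were positive with 0 called by edgeR (median log2 fold change 0.25). Those of the erythroid (5 of 5 tested, median -0.80), skeletal muscle (5 of 5, median -0.73) and lymphocyte markers (4 of 4, median -0.54) were all negative, again with 0 called by edgeR. The skeletal muscle sum was 411.2 CPM in control 6, the highest library, against 16.3 to 89.7 CPM in iKO libraries. With tamoxifen-injected controls alone, 3 of the 5 skeletal muscle markers were positive and 2 negative (median log2 fold change 0.07). The part of other cell types in the results was not tested. The iKO means of Rgs9bp and Rgs7bp are given with and without iKO 1.

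Rgs9bp encodes the R9AP anchor. It was at 4.44, 5.27, 5.23, 4.35, 3.84 and 5.28 CPM in iKO 1 to 6, against 1.82, 1.32, 1.83, 1.93, 1.09 and 1.60 CPM in controls 1 to 6. Every iKO library was above every control, with iKO 5 the lowest iKO and control 4 the highest control. In reads this was 61 to 105 counts per iKO library and 15 to 31 counts per control library, so the control levels rest on few reads.

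Rgs9bp averaged 4.74 ± 0.612 CPM in iKO and 1.60 ± 0.332 CPM in control ganglia (SD, n = 6 each), a 2.91-fold difference (log2 fold change 1.54 ± 0.16 SE). It ranked 3rd by fold change among the 88 genes called higher. Of the 10 genes, 1 (Rgs9bp) was called higher and 0 lower, where 0.537% and 0.409% of all genes tested were. For 1 of 10 every iKO library was above every control, where 0.879% of all genes were, and for 0 of 10 every iKO library was below, where 0.665% were. Since this contrast was known when the set was chosen, nothing is read from these counts. The log2 fold change of Rgs9bp was 1.45 ± 0.18 SE with tamoxifen-injected controls alone and 1.79 ± 0.26 SE with corn-oil controls alone, and Rgs9bp was the 1 gene of the 10 called higher in each (0.69% of all genes called higher against tamoxifen-injected controls and 0.116% against corn-oil controls), with 0 of the 10 called lower against corn-oil controls, where 0.0305% of all genes were. Set against 1000 CPM of the sensory neuron markers, Rgs9bp was at 0.224 to 0.379 CPM in iKO and 0.0591 to 0.143 CPM in control libraries, again without overlap. Within replicates 1 to 4 the log2 fold change of Rgs9bp was 1.50 ± 0.19 SE and within replicates 5 and 6, where both groups were male and of 1 genotype, 1.74 ± 0.30 SE. Without iKO 1 the iKO mean was 4.80 ± 0.664 CPM (SD, n = 5). Against corn-oil controls alone Rgs9bp was not past the threshold without iKO 6 (1.72), control 5 (1.56) or control 6 (2.11). Against tamoxifen-injected controls alone Rgs9bp was not past the threshold in a fit with the replicate number as a block.

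**Figure D1:**
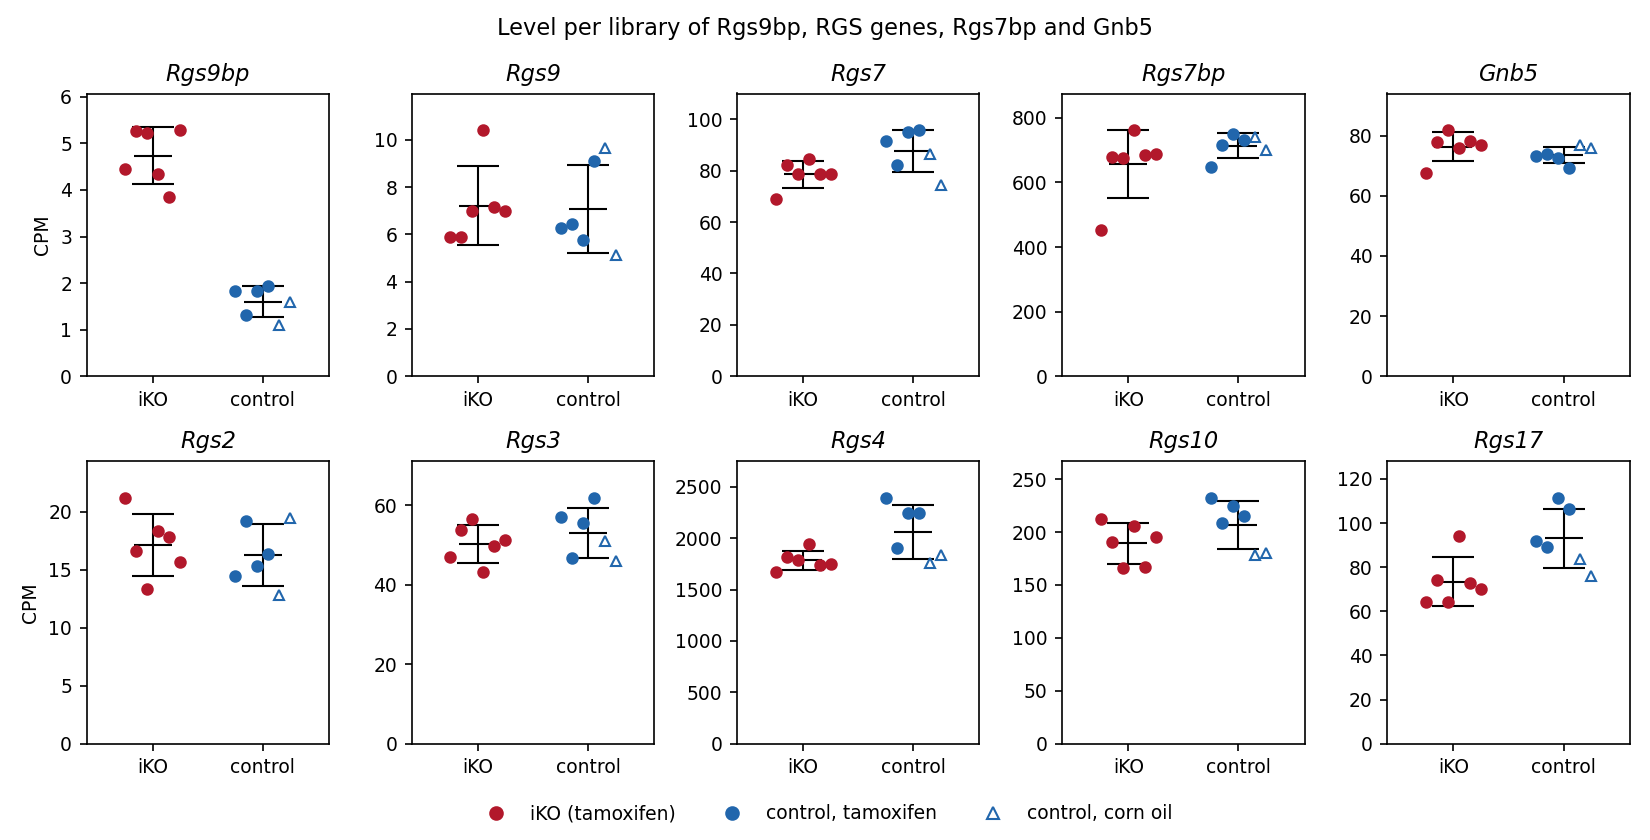
Level of each of the 10 genes in CPM (linear axes), 1 point per library, iKO left and control right. Open triangles are the corn-oil controls, and bars give the mean ± SD of 6 libraries. Rgs9bp is the panel in which the groups do not overlap, with iKO libraries between 3.84 and 5.28 CPM.

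Rgs9 encodes the R7 subunit that R9AP anchors in photoreceptors. Its levels were 5.88, 5.88, 6.98, 10.4, 7.17 and 7.0 CPM in iKO 1 to 6, against 6.29, 6.45, 5.78, 9.10, 9.66 and 5.12 CPM in controls 1 to 6. Both groups spanned about the same range, with iKO 4 the highest library of all. The means were 7.23 ± 1.68 CPM in iKO and 7.07 ± 1.86 CPM in control ganglia (SD, n = 6 each, log2 fold change 0.08 ± 0.17 SE), and Rgs9 was not called.

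Rgs7, an R7 subunit widespread in the brain, was at 69.1 to 84.6 CPM in iKO and 74.3 to 95.7 CPM in control libraries. All 6 iKO libraries were below the control median of 89.1 CPM, but the ranges overlapped and the gene was not called (log2 fold change -0.15 ± 0.07 SE). Gnb5, the Gβ5 partner that all R7 subunits need, averaged 76.4 ± 4.73 CPM in iKO and 73.7 ± 2.65 CPM in control ganglia (SD, n = 6 each; log2 fold change 0.05 ± 0.05 SE). An antisense gene, Gm19531, shares 7.96% of the Gnb5 exon bases, and since the libraries carry no strand its reads cannot be told apart there. It was counted at no more than 0.776 CPM in any iKO and 0.922 CPM in any control library.

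Rgs7bp, the R7BP anchor, was at 452.4, 678.9, 675.9, 761.3, 685.5 and 688.8 CPM in iKO 1 to 6, against 646.8, 716.6, 751.6, 731.7, 739.4 and 700.5 CPM in controls 1 to 6. One library, iKO 1, was far below the other 11. The iKO mean was 657.1 ± 105.2 CPM, and 698.1 ± 35.7 CPM without iKO 1 (SD, n = 5), beside 714.4 ± 37.6 CPM in controls (SD, n = 6). The log2 fold change was -0.10 ± 0.09 SE with all libraries, and -0.02 without iKO 1. Set against the sum of the 12 sensory neuron markers, Rgs7bp in iKO 1 was 38.7 CPM per 1000 CPM of markers, inside the range of the other 5 iKO libraries (38.5 to 48.8), while controls ran from 40.1 to 51.0. In ganglia sequenced whole, fewer cells of a type and less RNA per cell cannot be told apart.

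**Figure D2:**
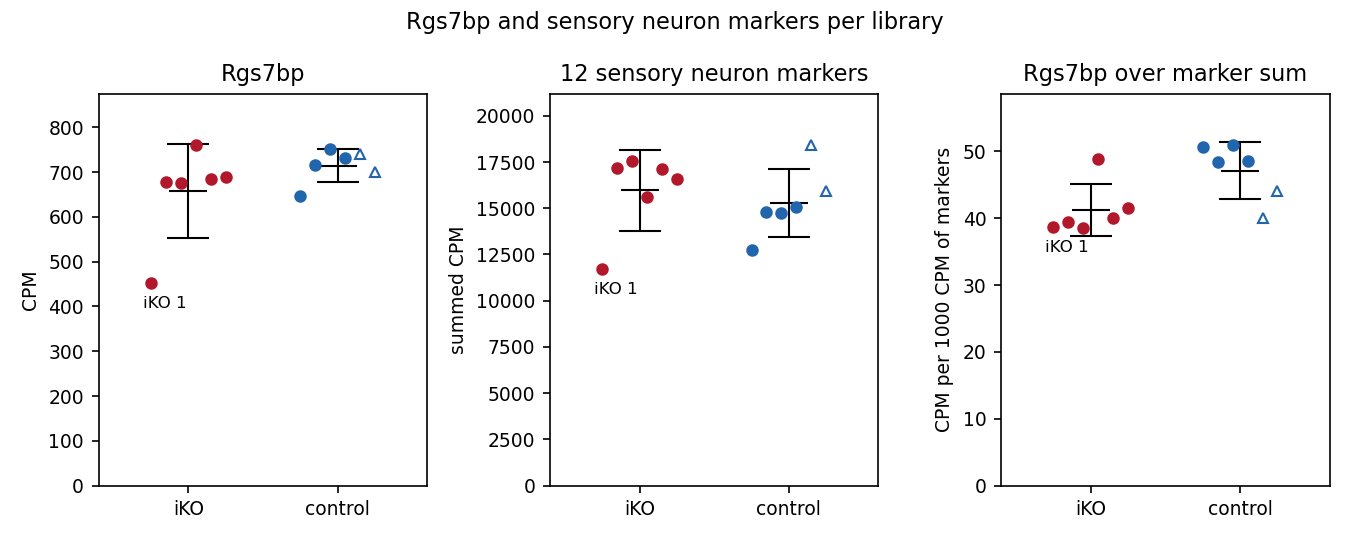
Rgs7bp in CPM, the summed CPM of 12 sensory neuron markers, and the ratio of the 2, 1 point per library with iKO left and control right. Open triangles are corn-oil controls and bars the mean ± SD of 6 libraries. Library iKO 1 is the lowest point for Rgs7bp (452.4 CPM) and for the markers (11693.7 CPM), and lies among the other iKO libraries in the ratio.

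Levels of different genes were compared per kilobase of exon. In controls the order was Rgs4 (666.1 ± 84.7 CPM per kilobase), Rgs10 (120.7 ± 13.1), Rgs7bp (101.0 ± 5.32), Gnb5 (23.7 ± 0.852), Rgs7 (14.6 ± 1.38), Rgs17 (11.2 ± 1.62), Rgs3 (4.90 ± 0.572), Rgs2 (4.49 ± 0.727), Rgs9 (1.11 ± 0.291) and Rgs9bp (0.243 ± 0.0504; SD, n = 6 each). Rgs3 and Rgs2 did not differ beyond their spread on this length, and in iKO their order was turned (4.65 ± 0.441 CPM per kilobase for Rgs3 and 4.73 ± 0.734 for Rgs2). This rests on the length used: per kilobase of the longest transcript Rgs3 was at 10.7 CPM in iKO and 11.3 ± 1.31 CPM in controls, and Rgs2 at 5.68 CPM in iKO and 5.39 ± 0.873 CPM in controls. On that length Rgs3 and Rgs17 (11.4 ± 1.64 CPM per kilobase) did not differ beyond their spread in controls. Rgs9bp was the lowest of the 10 in both groups, at 0.719 ± 0.0928 CPM per kilobase in iKO.

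Per kilobase, Rgs7bp exceeded Rgs9bp by 131.0 ± 27.9 times in iKO and by 435.1 ± 114.1 times in control ganglia (SD, n = 6 each), and Rgs9bp made up 0.786% ± 0.165 of the summed level of the 2 anchors in iKO and 0.241% ± 0.0542 in controls. Library iKO 1, with its low Rgs7bp, had the lowest ratio of the anchors (95.0 times) and the highest Rgs9bp share (1.04%). The other iKO libraries ran from 120.0 to 166.3 times and from 0.598% to 0.827%. The ratio of Rgs9bp to Rgs9 was 0.404 to 0.869 in iKO and 0.109 to 0.307 in control libraries. Among the R7 subunits, Rgs9 was 3.30% ± 0.594 of the summed level of Rgs6, Rgs7, Rgs9 and Rgs11 in iKO and 3.17% ± 0.791 in controls. That sum was 34.1 ± 2.53 CPM per kilobase in iKO and 34.9 ± 0.896 in control ganglia, and iKO 1 gave its lowest value, 29.3.

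**Figure D3:**
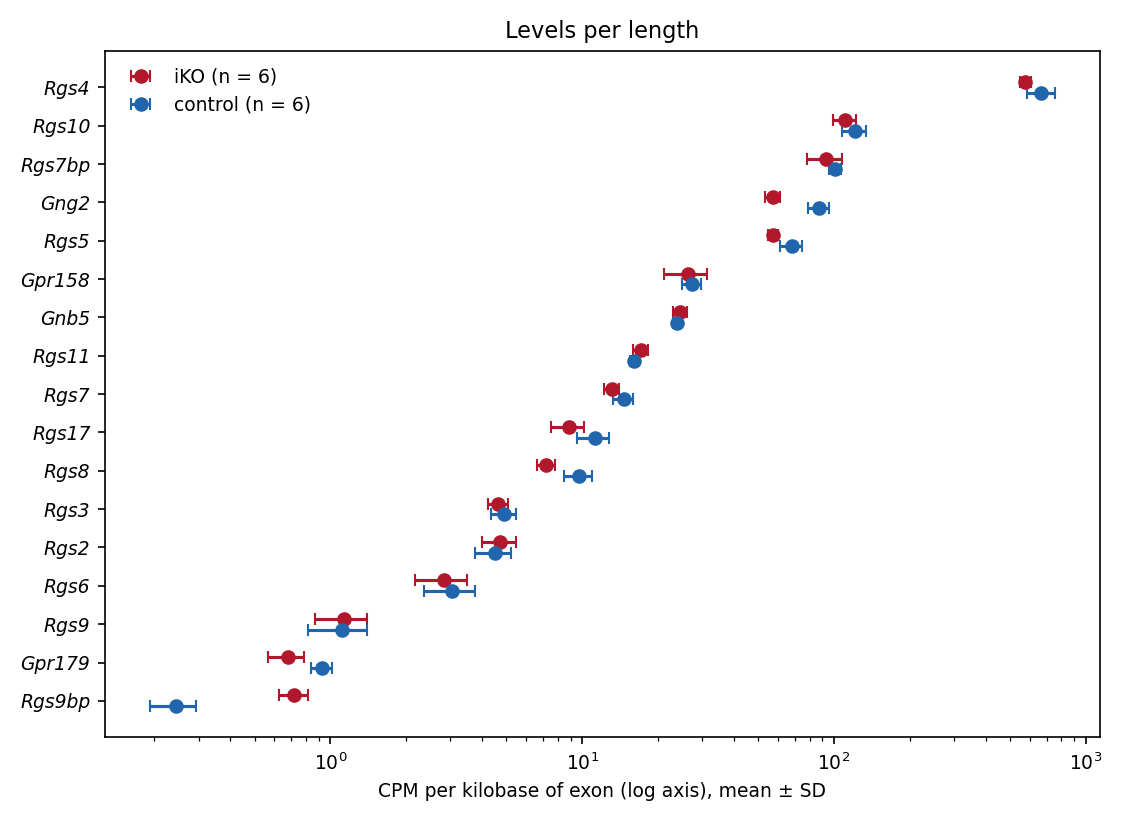
Mean level of the 10 genes and 7 related genes in CPM per kilobase of exon (log axis), with bars of 1 SD over 6 libraries; iKO is drawn above control for each gene. Rgs9bp lies at the bottom in controls (0.243) and is the gene whose iKO and control points are farthest apart.

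Rgs4, which acts on Gi/o and Gq and was the most abundant of the set, was at 1671.0, 1820.8, 1784.4, 1940.0, 1734.7 and 1749.3 CPM in iKO 1 to 6, against 2391.9, 1900.4, 2243.9, 2248.0, 1762.6 and 1834.4 CPM in controls 1 to 6. The 2 corn-oil controls, controls 5 and 6, were level with the iKO libraries, and the tamoxifen-injected controls were mostly above them. Its log2 fold change was -0.21 ± 0.09 SE against all controls, -0.30 ± 0.08 SE against tamoxifen-injected controls and 0.01 ± 0.11 SE against corn-oil controls, and it was not called in any of the 3. Against tamoxifen-injected controls it was called lower without iKO 1 (-0.28), with no filter on low counts (-0.28) and by DESeq2 (-0.30), and DESeq2 called 3 of the 10 genes there.

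Rgs17, of the RZ subfamily, which acts on Gz and Gi/o, was at 64.3, 74.2, 64.1, 94.2, 72.9 and 70.1 CPM in iKO 1 to 6, against 91.7, 89.2, 111.4, 106.4, 83.6 and 76.2 CPM in controls 1 to 6. Apart from iKO 4, every iKO library was below every control, and controls 5 and 6 were the lowest controls. Its log2 fold change was -0.32 ± 0.10 SE against all controls and not called. Against tamoxifen-injected controls it was called lower (-0.44 ± 0.08 SE), 1 of 2 set members called there with Rgs9bp, where 1.35% of all genes were called (0.665% lower). Against corn-oil controls it was -0.01 ± 0.11 SE. The call against tamoxifen-injected controls was lost without control 1 (-0.43) or without control 3 (-0.42), and in males alone (-0.46).

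Rgs10, a small RGS protein of the R12 subfamily that acts on Gi and is also abundant in macrophages and microglia, was at 166.4 to 211.9 CPM in iKO and 178.6 to 232.3 CPM in control libraries (log2 fold change -0.14 ± 0.08 SE), with controls 5 and 6 again the lowest controls. The highest iKO library for Rgs10 was iKO 1, which also had the highest macrophage marker sum; the part of macrophages in its level was not tested. Without iKO 1, Rgs10 was called lower against tamoxifen-injected controls (-0.25). Rgs2, which acts mainly on Gq, averaged 17.1 ± 2.66 CPM in iKO and 16.3 ± 2.64 CPM in controls, and Rgs3, which acts on Gi and Gq, 50.2 ± 4.76 CPM in iKO and 53.0 ± 6.18 CPM in controls (SD, n = 6 each). Their log2 fold changes were 0.07 ± 0.12 SE and -0.08 ± 0.09 SE, the groups overlapped for both, and neither was called.

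Over the 10 genes, 4 fold changes were positive and 6 negative, with a median of -0.09, beside a median of 0.00 over all genes tested.

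**Figure D4:**
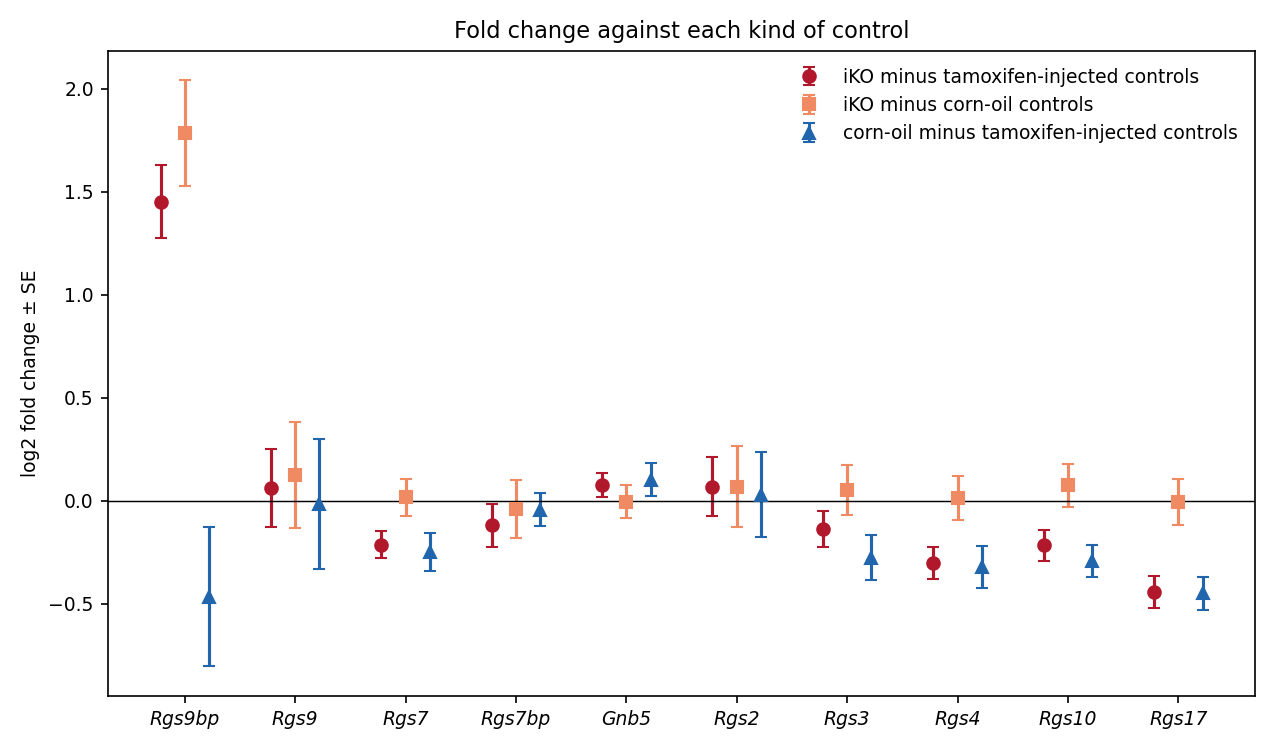
Log2 fold change ± SE of each gene for iKO minus tamoxifen-injected controls (circles), iKO minus corn-oil controls (squares) and corn-oil minus tamoxifen-injected controls (triangles). Rgs9bp is high against both kinds of control, while Rgs17 is low against tamoxifen-injected controls (-0.44) and level with corn-oil controls (-0.01). The comparisons share control libraries, so the points of 1 gene are not independent.

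Corn-oil and tamoxifen-injected controls were then compared with each other, a contrast that the choice of the set did not use. It asks how far the kinds of control differ, and agent goes with genotype and replicate number there and cannot be told apart from them. Only 2 libraries had corn oil, both male. By edgeR's quasi-likelihood test 0 of the 10 genes were called (0 of 16791 genes, 0% called), with 5 of 10 at an unadjusted p under 0.05 beside 13.3% of all genes, 2 called by DESeq2 and 0 by limma-voom. Rgs17 had the smallest p of the set. It was at 83.6 and 76.2 CPM in corn-oil controls, against 91.7, 89.2, 111.4 and 106.4 CPM in tamoxifen-injected controls, with a log2 fold change of -0.45 ± 0.08 SE (adjusted p = 0.169 in edgeR). Rgs4 (-0.32 ± 0.10 SE, adjusted p = 0.253), Rgs10 (-0.29 ± 0.08 SE, adjusted p = 0.217), Rgs3 (-0.28 ± 0.11 SE, adjusted p = 0.324) and Rgs7 (-0.25 ± 0.09 SE, adjusted p = 0.309) were the other 4, all by the same edgeR test.

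Both corn-oil controls were below all 4 tamoxifen-injected controls for Rgs4, Rgs10 and Rgs17, 3 of the 10 genes, where 13.9% of all genes were. Both were above for Gnb5, 1 of 10, where 12.9% of all genes were. Rgs9bp was at 1.09 and 1.60 CPM in corn-oil controls, against 1.32 to 1.93 CPM in tamoxifen-injected controls (-0.46 ± 0.34 SE, adjusted p = 0.571 by the edgeR quasi-likelihood fit), on 15 to 31 counts a library.

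Sex, which the choice did not use either, made no detectable difference. Between males and females edgeR's quasi-likelihood test called 0 of the 10 genes (0.0549% of all genes called), 0 had an unadjusted p under 0.05 (4.11% of all genes did), and DESeq2 and limma-voom each called 0. Log2 fold changes of male over female ranged from -0.08 for Rgs9bp to 0.31 for Rgs9 (± 0.17 SE). Rgs9bp averaged 4.49 CPM in male and 4.98 CPM in female iKO libraries, and 1.61 CPM in male and 1.57 CPM in female controls. Its sex by group interaction was -0.19 ± 0.34 SE (adjusted p = 0.958 in edgeR), and 0 of the 10 genes were called for the interaction by edgeR, DESeq2 or limma-voom, with 0 at an unadjusted p under 0.05 (3.59% of all genes at that level, 0% called).

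The rest of the G-protein cycle was read through 8 lists of 95 genes, of which 84 were tested. Between iKO and control 0 rose and 2 fell (2.38%, beside 0.946% of all genes), with a median log2 fold change of -0.03. The lists were written with earlier results of these libraries known, so these counts are not independent support for any direction.

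Gng2, a Gγ subunit, fell to 250.8 ± 17.2 CPM in iKO, against 382.9 ± 35.6 CPM in control ganglia (SD, n = 6 each, log2 fold change -0.60 ± 0.07 SE, adjusted p = 0.000553 by the edgeR quasi-likelihood fit). It was at 233.2 to 281.0 CPM in iKO libraries, against 340.6 and 342.9 CPM in corn-oil controls and 375.1 to 423.4 CPM in tamoxifen-injected controls, and the groups did not overlap. A non-coding gene on the other strand, Gm48283, shares 20.4% of its exon bases and had a count of 0 in all 12 libraries. The log2 fold change against corn-oil controls was -0.39 ± 0.08 SE and was not called (adjusted p = 0.109 in edgeR), nor was it in a fit without the tamoxifen-injected controls (-0.38, adjusted p = 0.564 in edgeR).

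Rgs8, an R4-subfamily RGS gene for Gi/o, was the other. It was at 62.4 to 75.7 CPM in iKO libraries, against 76.7 to 109.9 CPM in controls, with control 6 the lowest control and just above the highest iKO library. Rgs8 fell to 69.6 ± 5.56 CPM in iKO, against 93.5 ± 11.5 CPM in controls (SD, n = 6 each, -0.44 ± 0.08 SE, adjusted p = 0.0174 by the edgeR quasi-likelihood fit). The Rgs8 call was lost in 7 of 26 alternatives. These included leaving out iKO 5 (-0.44, adjusted p = 0.0533), control 1 (-0.36, adjusted p = 0.0764) or the tamoxifen-injected controls (-0.23, adjusted p = 1), by the same edgeR test. It was also lost within replicates 1 to 4 (-0.55, adjusted p = 0.053 in edgeR), within replicates 5 and 6 (-0.16, adjusted p = 0.643 in edgeR) and in males alone (-0.37, adjusted p = 0.186 in edgeR).

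Of the other 6 lists edgeR's quasi-likelihood test called 0 genes. Among the 4 other R7 partners the smallest p belonged to Gpr179, a membrane partner of R7 complexes in retinal bipolar cells (-0.46 ± 0.12 SE, adjusted p = 0.101 by edgeR), while Rgs6, Rgs11 and the RGS7-binding receptor Gpr158 were at -0.09 ± 0.18, 0.09 ± 0.05 and -0.04 ± 0.13 SE. The smallest p was that of Grk5, a receptor kinase, among 14 RGS-box relatives (-0.20 ± 0.06 SE), of Gna12 among 14 Gα genes (0.23 ± 0.07 SE), of Rap1gap among 8 modulators of the G cycle (0.19 ± 0.10 SE), of the adenylyl cyclase Adcy5 among 12 Gi effectors (-0.19 ± 0.06 SE), and of the channel Trpc6 among 10 Gq effectors (-0.39 ± 0.10 SE). Their adjusted p-values by edgeR ran from 0.101 for Trpc6 to 0.557 for Rap1gap. Against tamoxifen-injected controls alone 1 of the 84 genes was called higher and 4 lower (5.95%, beside 1.35% of all genes). Gna12 was the one called higher. Those called lower were Gng2, Trpc6 and 2 of the other RGS genes, among them Rgs8. Against corn-oil controls alone 0 of the 84 were called (0.146% of all genes called).

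**Figure D5:**
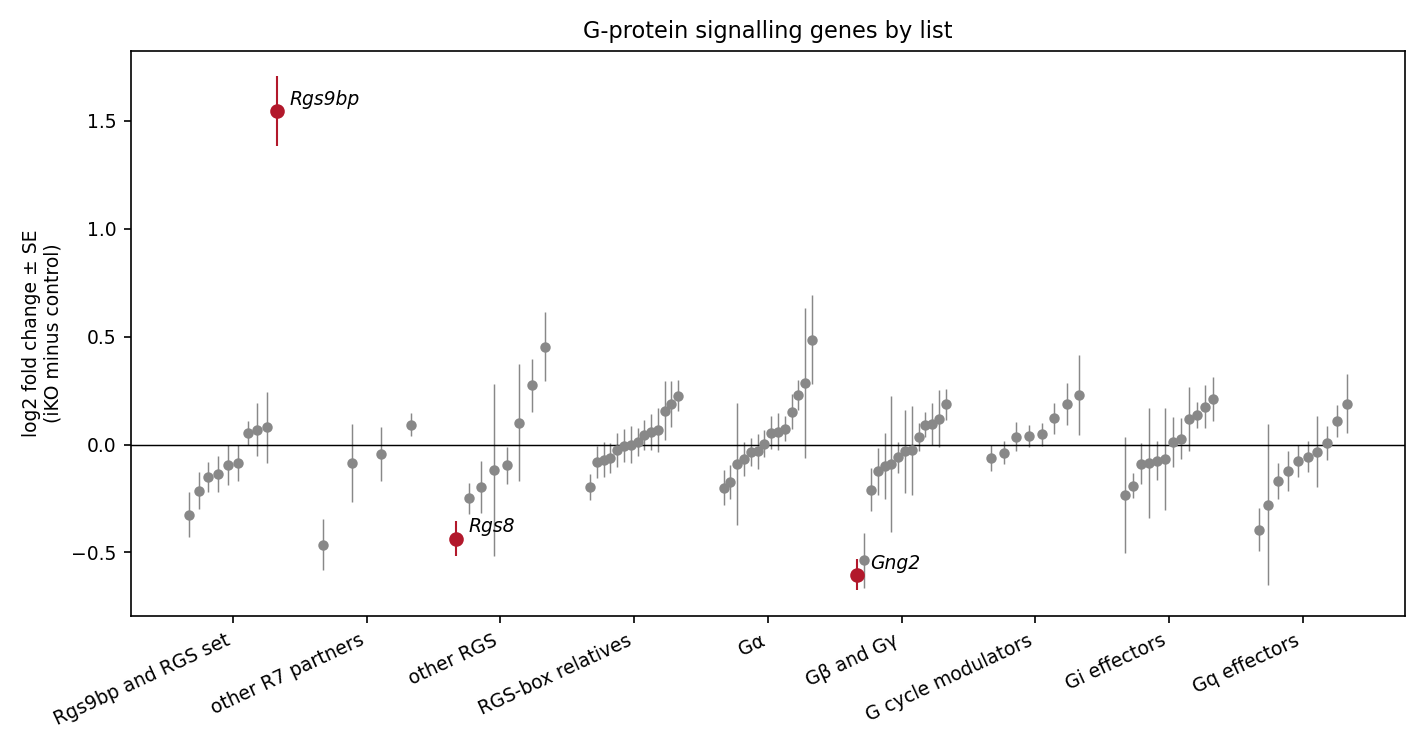
Log2 fold change (iKO minus control, ± SE) of the 10 genes and of the tested genes of 8 lists, each point a gene, ordered by value within its list. Red points were called at an adjusted p under 0.05: Rgs9bp (1.54), Rgs8 (-0.44) and Gng2 (-0.60). Most of the other points lie within 0.5 of 0.

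Photoreceptor genes were looked at because R9AP is best known there. Gnat1, the rod transducin Gα subunit, and the photoreceptor factor Crx were at or near 0 in all 12 libraries (at most 0.0727 CPM and 0.123 CPM in any library).

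The genes whose profile over the 12 libraries was nearest to that of Rgs9bp were Stk32a, Drd1, Cyp26b1, Chrna6 and Skor2. Likeness was the root mean square difference between log2 CPM profiles centred on each gene's mean, and it was 0.203 for Stk32a, 0.288 for Drd1, 0.298 for Cyp26b1, 0.307 for Chrna6 and 0.321 for Skor2, among 14484 protein-coding genes. All 5 were higher in iKO, as the measure requires of a gene near one with this pattern. Within the set the nearest was Gnb5 at 0.772, which ranked 3910th, and Rgs17 was the farthest at 0.963.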

How the data were processed

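RNA of 12 libraries of dorsal root ganglia was sequenced as poly(A) RNA with a TruSeq kit that keeps no strand, per the labels' protocols. Per the submitters' processing notes, base calls were converted with bcl2fastq 2.20.0.422, and STAR 2.7.8a and, for counting, featureCounts 2.0.1 were used with GRCm39; the annotation release is not given in the sources used here, nor is the treatment of reads shared between genes. The authors deposited 1 table of raw counts for each library, without normalization.

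Symbols and exon lengths came from GENCODE M21 on GRCm38, matched by identifier (52135 of 55416 named, 99.69% of counts); since the builds differ, no coordinates are given. Groups, sex and agent were taken from the labels. Counts were scaled by TMM and filtered with filterByExpr, which kept 16384 genes (16791 within the 6 controls), and tested with edgeR 4.0.16 (R 4.3.3) by the robust quasi-likelihood test with sex and group as terms, 2-sided, with Benjamini-Hochberg adjustment over all genes tested and a threshold of 0.05. CPM are counts scaled to a TMM-adjusted library size of 1000000. SE were derived from fold change and F statistic. Comparisons with each kind of control used all 12 libraries with 3 groups. Residual degrees of freedom were 9 between iKO and control, 8 with 3 groups and 3 within the controls. The biological coefficient of variation was 12.8% between iKO and control. The procedure was tested on simulated data. Likeness used a prior count of 2.

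The 10 genes and all lists were chosen with earlier results of these data known. The 10 genes, Prdm12, up to 4 called genes of each list (or the one with the smallest p) and the 5 nearest profiles to Rgs9bp are named; Rgs6, Rgs11, Gpr158, Gnat1 and Crx were named after their values were seen, and 1 result is not reported here. Alternatives were another scaling, no filter, DESeq2 1.42.0, limma-voom (limma 3.58.1), other terms and left-out libraries.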

Additional observations from a re-analysis of the deposited data

Results flagged for a closer look

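Within groups of 6 libraries, a highest or lowest library was singled out where its gap to the nearest other library exceeded 0.625 of the group's range, a rule that chance meets in about 1 in 20 groups; 52 groups were examined and 12 libraries' values met it. Among the genes of the set these were Rgs9 in iKO 4 (10.4 CPM), Rgs17 in iKO 4 (94.2 CPM) and Rgs7bp in iKO 1 (452.4 CPM). Prdm12 was lowest in iKO 1 (18.6 CPM).

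Library iKO 1 was also singled out for the summed level of sensory neuron markers (11693.7 CPM, low) and of macrophage (314.7 CPM), lymphocyte (13.6 CPM), endothelial (190.0 CPM), mural (228.2 CPM) and fibroblast markers (3874.7 CPM), all high. Skeletal muscle markers were high in control 6 (411.2 CPM) and spinal cord markers in iKO 5 (5.35 CPM).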

How the results depend on the processing

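The log2 fold change of Rgs9bp, a description since it was known when the set was chosen, was 1.53 to 1.58 under the alternatives with all 12 libraries, 1.47 to 1.62 on leaving out 1 library, 1.46 without the corn-oil controls, 1.46 in males alone and 1.72 without the tamoxifen-injected controls, where 1 gene in all was called. Set members called between iKO and control were 2 in place of 1 without the corn-oil controls and with the run of replicate numbers (1 to 4, 5 and 6) as a term, Rgs17 being the second, and 0 without the tamoxifen-injected controls. All genes called were 253 with no filter, 294 by DESeq2, 235 without the corn-oil controls, 35 in replicates 1 to 4, 82 in replicates 5 and 6, 92 to 364 on leaving out 1 library (364 without iKO 1, 92 without control 1), and, chosen after seeing the data, 341 without iKO 1 and control 6 and 45 in males alone, against 155. Members called against tamoxifen-injected controls were 1 to 4 on leaving out 1 library (4 without iKO 1) and 1 in males alone, against 2; against corn-oil controls they were 0 to 1, with Rgs9bp lost without iKO 6, control 5 or control 6. Between the kinds of control 3 members were called with no filter and 2 by DESeq2, against 0. For no result did a called direction turn.

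Replicate numbers are not said to pair libraries. Same-numbered libraries correlated at -0.153 to 0.217 in their deviations from the group means, and 3 of 6 iKO libraries were closest to the control of their own number. With the replicate number as a block 79 genes were called and the Rgs8 call was lost (-0.41, adjusted p = 0.263 in edgeR); against tamoxifen-injected controls 0 members were called, Rgs9bp (1.47) and Rgs17 (-0.32) no longer being past the threshold. With the longest transcript's length all 10 genes kept their place in the order in controls; in iKO, Rgs3 (10.7 CPM per kilobase) was above Rgs17 (8.95) and Rgs2 (5.68). With a prior count of 0.5 the nearest profiles to Rgs9bp shared 4 of 5 genes.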
